A study of Mus musculus with 22 samples.

Results

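DZNep and MS023 are compounds that interfere with methylation at different breadths, and RNA of mouse E14 embryonic stem cells exposed to one was set directly against RNA of the same cells exposed to the other. The comparison rests on the 2 DZNep libraries and the 2 MS023 libraries, 4 of the 22 libraries of the series, chosen by their titles and treatment labels. The remaining 18 libraries are the 2 labelled NC, which is the only group whose label names no compound, and 16 libraries of 8 other compounds, with 2 libraries each. The labels of these 8 are Bromosporine, CPTH2, Chaetocin, Garcinol, IOX1, OICR, UNC0379 and Valproate. Every library came from E14, a mouse embryonic stem cell line, and polyadenylated RNA was captured on oligo-dT beads. The labels give no dose, exposure time, solvent or culture condition, and nothing says that replicates 1 and 2 came from separate cultures, so the p-values measure the spread between these libraries, which may be technical.

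Methyltransferases take the methyl group they transfer from S-adenosylmethionine and release S-adenosylhomocysteine, which inhibits them until S-adenosylhomocysteine hydrolase (Ahcy) splits it into homocysteine and adenosine. DZNep (deazaneplanocin A) is an adenosine analog that inhibits this hydrolase, so methylation of histones, DNA, RNA and other proteins can all be affected, and it is best known for lowering the trimethylation of histone H3 lysine 27 set by polycomb repressive complex 2. MS023 inhibits the type I arginine methyltransferases, among them Prmt1, Carm1 and Prmt6, which place asymmetric dimethylarginine on histones and on many RNA-binding and splicing proteins. The comparison asks which transcripts separate cells under a broad block of methylation from cells under a block of 1 class of arginine methyltransferases. It reads steady-state RNA of genes and measures neither methylation nor the activity of any enzyme.

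The deposited values are read counts per gene that the authors normalized to a common distribution and rounded to whole numbers. Totals per library therefore ran only from 38403767 to 38419709, and the sequencing depth behind each library is not known here. Genes listed at 0 numbered 1151 and 1257 in the DZNep libraries and 1420 and 1338 in the MS023 libraries, within the range of 1065 to 1707 over all 22. Across genes, which are not independent replicates, Pearson's r of log2(value + 1) was 0.9226 between the DZNep libraries and 0.9452 between the MS023 libraries, against 0.8819 to 0.9032 for a DZNep with an MS023 library. All 8 defining markers of embryonic stem cells were above 0 in the 4 libraries, with a summed value of 263178 and 275853 with DZNep, 183546 and 168057 with MS023, and 201528 and 203655 in NC.

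DZNep and MS023 left E14 cells with widely different transcript levels. Of 17275 genes tested, 1891 (10.9%) were called, with 960 (5.56%) higher and 931 (5.39%) lower in DZNep than in MS023. Calls needed both an adjusted p below 0.05 (limma, Benjamini-Hochberg) and more than a 2-fold difference on the log2(value + 1) scale, in a fit of all 22 libraries with 11 residual degrees of freedom. That scale understates the fold of genes with low values. The median log2 difference (DZNep minus MS023) over all tested genes was −0.04. In 9603 genes (55.6%) the values of the 2 groups did not overlap, as in all 1891 called genes, so that separation of 2 libraries from 2 carries little information by itself. Fitted on the 4 libraries alone, with 2 residual degrees of freedom, the comparison gave 460 higher and 325 lower calls, and 712 of those 785 were among the 1891. Which side held more calls was not stable: without DZNep replicate 1 there were 964 higher and 1067 lower, and without DZNep replicate 2 there were 727 and 798.

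**Figure D1:**
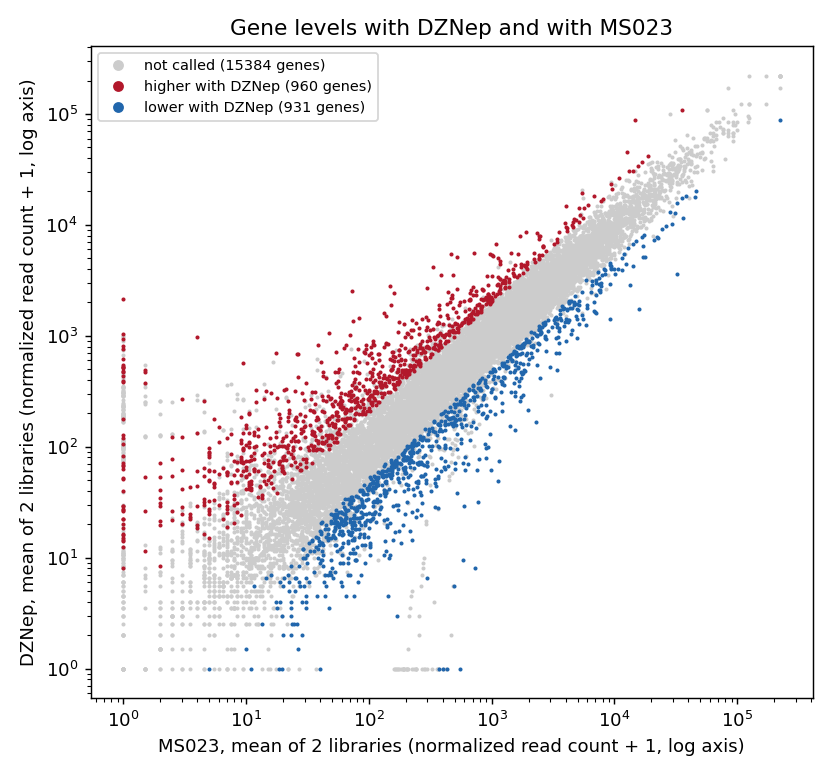
Mean normalized read count + 1 of the 2 DZNep libraries (vertical) against the 2 MS023 libraries (horizontal) for each of the 17275 tested genes, both on log axes. The 960 genes called higher with DZNep (red) and the 931 called lower (blue) spread on both sides of the diagonal over the whole range of levels, and those on the axes are listed at 0 in both libraries of a group.

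Against NC the compounds differed in how many genes were called. DZNep gave 1970 calls (11.4% of tested genes), 910 up (5.27%) and 1060 down (6.14%), and MS023 gave 168 (0.973%), 67 up (0.388%) and 101 down (0.585%). The MS023 count rests on both of its libraries, with 45 calls without MS023 replicate 1, of which 27 were among the 168, and 89 without MS023 replicate 2, of which 60 were. With the replicate number as a block it was 484. These comparisons share the NC libraries, so they are given only side by side. The called genes were also placed among all 22 libraries. Of the 960 genes called higher in DZNep, 586 (61%) had both DZNep libraries above each of the other 20 libraries, against 8.85% of all tested genes, whereas 108 (11.2%) had both MS023 libraries below all others, against 2.15% of tested genes. Of the 931 genes called lower, 484 (52%) had both DZNep libraries below all others and 156 (16.8%) had both MS023 libraries above all others, against 8.52% and 2.73% of tested genes. These genes were called on the DZNep and MS023 values themselves, so the shares are a description.

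Among enzymes the compounds act on, the transcripts of Ahcy, Prmt1, Carm1 and Prmt6 did not pass the 2-fold limit. Ahcy stood at 225 and 224 in the DZNep libraries, 454 and 337 with MS023 and 336 and 431 in NC. Both DZNep values lay below the other 4, and the difference of −0.80 ± 0.26 (log2, SE; limma adjusted p = 0.0407) stayed under the 2-fold limit. Ahcy shares 79.4% of its 31-base stretches with other annotated transcripts, so its count may be divided with near copies. Prmt1, the main type I enzyme, had values of 12351 and 13591 under DZNep and of 12863 and 15350 under MS023. The groups overlapped, and the 95% interval of the log2 difference ran from −0.53 to 0.30. The intervals ran from −0.58 to −0.05 for Carm1, from −0.33 to 1.40 for Prmt6 and from −0.28 to 0.39 for Prmt5, a type II enzyme, and none of these genes was called.

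Genes of the integrated stress response lay lower with DZNep as a whole list. In this response kinases that sense lack of amino acids, unfolded protein or other stress phosphorylate eIF2α, and the transcription factor Atf4 is then translated and switches on genes for amino acid synthesis, transport and tRNA charging. Of 35 listed genes, all tested, 22 were called lower in DZNep than in MS023 and 0 higher, and all 35 differences were negative, from −3.80 to −0.08 with a median of −1.57, beside −0.04 for all genes. The list's share of lower calls stands against 5.39% of all tested genes. The 4 members with the largest differences follow the naming rule, and the further members given by name were chosen after their values were seen.

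Chac1, an enzyme that degrades glutathione, had values of 205 and 129 with DZNep, 2006 and 2585 with MS023 and 1526 and 1195 in NC. DZNep was low and MS023 highest, with no overlap among the 3 groups, and the log2 difference was −3.80 ± 0.51 (SE), or 13.9-fold (limma adjusted p = 0.000181). Vldlr, a lipoprotein receptor, ran 109 and 99 with DZNep, 795 and 981 with MS023 and 625 and 463 in NC, a difference of −3.08 ± 0.25 (limma adjusted p = 4.37e-06). The order DZNep, NC, MS023 was the same as for Chac1. Nupr1, a small stress-induced chromatin protein, had 674 and 309 with DZNep and 3561 and 3189 with MS023, and Ddit3, the pro-apoptotic factor CHOP, had 770 and 285 against 3067 and 2930. The calls of these last genes were lost without some single libraries. For Nupr1 the adjusted p of limma was 0.0142 with all libraries and 0.105 without DZNep replicate 2, 0.071 without MS023 replicate 1 and 0.0617 without MS023 replicate 2. For Ddit3 it was 0.0377, and 0.223, 0.132 and 0.126 without the same libraries, with log2 differences of −1.96 to −2.71. Exons of Ddit3 overlap those of Mars on the opposite strand, and whether counting used strand is not stated. The lowest values in the 16 libraries of other compounds were 158 for Chac1, 127 for Vldlr, 221 for Nupr1 and 143 for Ddit3. Of these genes only Vldlr had both DZNep libraries below that range.

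The regulators themselves were also lower. Atf4 stood at 8370 and 4496 with DZNep, 17952 and 16371 with MS023 and 13581 and 10004 in NC, a difference of −1.48 ± 0.32 (limma adjusted p = 0.00484). Trib3, a pseudokinase that restrains Atf4, ran 1156 and 771, 4876 and 5048, and 3919 and 2805 in the same order (−2.39 ± 0.30, limma adjusted p = 0.000104). Cebpb, a bZIP partner, was the 1 member also called between MS023 and NC, with 1084 and 1448 in MS023 against 529 and 582 in NC and 395 and 319 in DZNep, and that call was lost without MS023 replicate 2 (0.96, limma adjusted p = 0.07).

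Enzymes of amino acid supply made up much of the rest. Phgdh, the entry enzyme of serine synthesis, had 1580 and 1650 with DZNep and 6377 and 7894 with MS023, close to the 7894 and 6544 of NC, and differed by −2.13 ± 0.14 (limma adjusted p = 1.2e-06). It shares 74.1% of its 31-base stretches with other annotated transcripts. Psat1 and Psph, the following steps, differed by −1.57 and −1.60, and Mthfd2, of mitochondrial folate metabolism, by −2.25 (3253 and 2457 against 13538 and 13277). The proline synthesis enzymes Pycr1 (962 and 820 against 4066 and 3983) and Aldh18a1 (1685 and 1126 against 5466 and 5556) lay on the same side, and Slc7a11, the cystine importer, differed by −1.75. All of these were called.

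Members differed in whether MS023 or NC lay higher. The list's median against NC was −0.96 for DZNep, with 15 members down and 0 up, and 0.48 for MS023, with 1 up and 0 down. The smallest direct differences were those of Eif4ebp1 (−0.08), Sesn2 (−0.09) and Cars (−0.26), none of them called. Asns, the asparagine synthetase widely used as a readout of the pathway, measured 36708 and 41963 under DZNep and 54023 in both MS023 libraries. Its difference of −0.46 (95% interval −0.74 to −0.18, limma adjusted p = 0.0202) was not called, and at such high levels the normalization gives few distinct values.

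The number of members called lower ran from 17 to 27 over the alternatives tried. It was 17 in the fit of the 4 libraries alone and without DZNep replicate 2, in which the median was −1.28.

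Promoters of the list were searched for the composite C/EBP-ATF element that Atf4 binds, known as CARE. In RefSeq promoters (GRCm38.p6, 250 bases before to 50 after each start) TGATGNAA occurred on either strand in 1219 of 27025 genes (4.51%) and in 11 of the 29 list members with a window (37.9%). Among members called lower it was in 9 of 21, and among those not called in 2 of 8. The motif was chosen with earlier results known, and a match is a description of the sequence, not a bound site. The list holds genes of the response that Atf4 drives, so its share of an Atf4 element is not independent of how it was chosen. The following stretches each hold the match farthest before the start in a member called lower. A further match of Slc7a11 is left out, as is that of Trib3, which lies 14 bases after the start. Each is given 5′ to 3′ on the strand that reads TGATGNAA, with the match in capitals.
Chac1 (chr2:119351033-119351072, minus strand, match 193 bases before the start): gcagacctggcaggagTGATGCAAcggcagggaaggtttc
Vldlr (chr19:27216804-27216843, minus strand, 200 bases before): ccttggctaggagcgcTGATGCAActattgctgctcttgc
Nupr1 (chr7:126625557-126625596, plus strand, 110 bases before): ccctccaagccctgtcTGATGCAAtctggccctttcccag
Atf3 (chr1:191183420-191183459, plus strand, 110 bases before): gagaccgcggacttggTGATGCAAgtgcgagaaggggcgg
Slc7a11 (chr3:50443656-50443695, minus strand, 66 bases before): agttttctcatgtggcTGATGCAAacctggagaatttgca
Pycr1 (chr11:120643828-120643867, minus strand, 103 bases before): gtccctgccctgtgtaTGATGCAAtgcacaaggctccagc
Herpud1 (chr8:94386301-94386340, minus strand, 112 bases before): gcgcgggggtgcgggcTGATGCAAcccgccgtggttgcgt
Gars (chr6:55037955-55037994, minus strand, 30 bases before): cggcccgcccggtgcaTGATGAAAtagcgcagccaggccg

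Cholesterol synthesis was the other pathway whose members lay lower together. Srebp transcription factors drive these genes when membrane sterol is scarce, and Insig1 and sterol hold the Srebps back in the endoplasmic reticulum. Of 25 listed genes, all tested, 16 were called lower in DZNep than in MS023 and 0 higher, beside 5.39% lower among all genes. The differences had a median of −1.41, and 24 of 25 were negative.

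Hmgcs1, which makes HMG-CoA at the entry of the pathway, stood at 5332 and 4853 with DZNep, 17970 and 17604 with MS023 and 9529 and 11505 in NC. The groups were fully apart, with NC between the others, and the log2 difference was −1.81 ± 0.12, or 3.5-fold (limma adjusted p = 1.72e-06). Nsdhl and Tm7sf2, enzymes of the later sterol steps, differed by −2.10 ± 0.33 and −2.08 ± 0.15, with 253 and 489 against 1427 and 1598 for Nsdhl and 188 and 203 against 847 and 816 for Tm7sf2.

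Genes named after their values were seen included enzymes of the steps between and the regulator Insig1. The prenyl transferase Fdps differed by −1.46, Cyp51 by −1.68, Msmo1 by −1.78 and Insig1 by −1.60. All of these were called. Srebf2, which encodes the Srebp most tied to sterol synthesis, stood at 9907 and 13113 with DZNep and 15612 and 18762 with MS023, a difference of −0.59 (limma adjusted p = 0.00703) under the 2-fold limit. Ebp (0.13), an enzyme of the last sterol steps, had a 95% interval that included 0. Against NC the list's median was −1.02 for DZNep, with 13 members down, and 0.18 for MS023, with 0 called either way. Over the alternatives 13 to 19 members were called lower.

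The promoters of this list were searched for the CCAAT box and the sterol element. These motifs differ in length and in their share over all genes, so their shares are not ranked. ATTGG, its reverse complement, was in 16 of the 17 members with a window (94.1%: 10 of 11 called lower and 6 of 6 not called), against 41.1% of all genes, and so did not separate called from uncalled members. The sterol element searched as TCACNCCAC was in 1 of the 17, Hmgcs1, against 1.44% of all genes. CARE was also in 1 of the 17. The 250 bases before the Hmgcs1 start are shown because they hold both elements, with TCACNCCAC and each ATTGG in capitals, and stretches of other called members with ATTGG follow.
Hmgcs1 (chr13:119690101-119690350, plus strand): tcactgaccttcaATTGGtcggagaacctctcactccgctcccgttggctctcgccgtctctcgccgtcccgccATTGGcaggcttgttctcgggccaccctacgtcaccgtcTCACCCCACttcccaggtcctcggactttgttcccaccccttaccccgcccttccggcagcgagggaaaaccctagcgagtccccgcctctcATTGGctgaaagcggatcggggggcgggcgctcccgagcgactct
Tm7sf2 (chr19:6067877-6067913, minus strand, match 47 bases before the start): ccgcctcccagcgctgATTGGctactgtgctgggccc
Lss (chr10:76531527-76531563, plus strand, 62 bases before): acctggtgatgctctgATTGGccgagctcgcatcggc
Dhcr7 (chr7:143830149-143830185, plus strand, 49 bases before): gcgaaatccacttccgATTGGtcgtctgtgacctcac
Cyp51 (chr5:4104706-4104742, plus strand, 29 bases before): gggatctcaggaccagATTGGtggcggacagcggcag

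**Figure D2:**
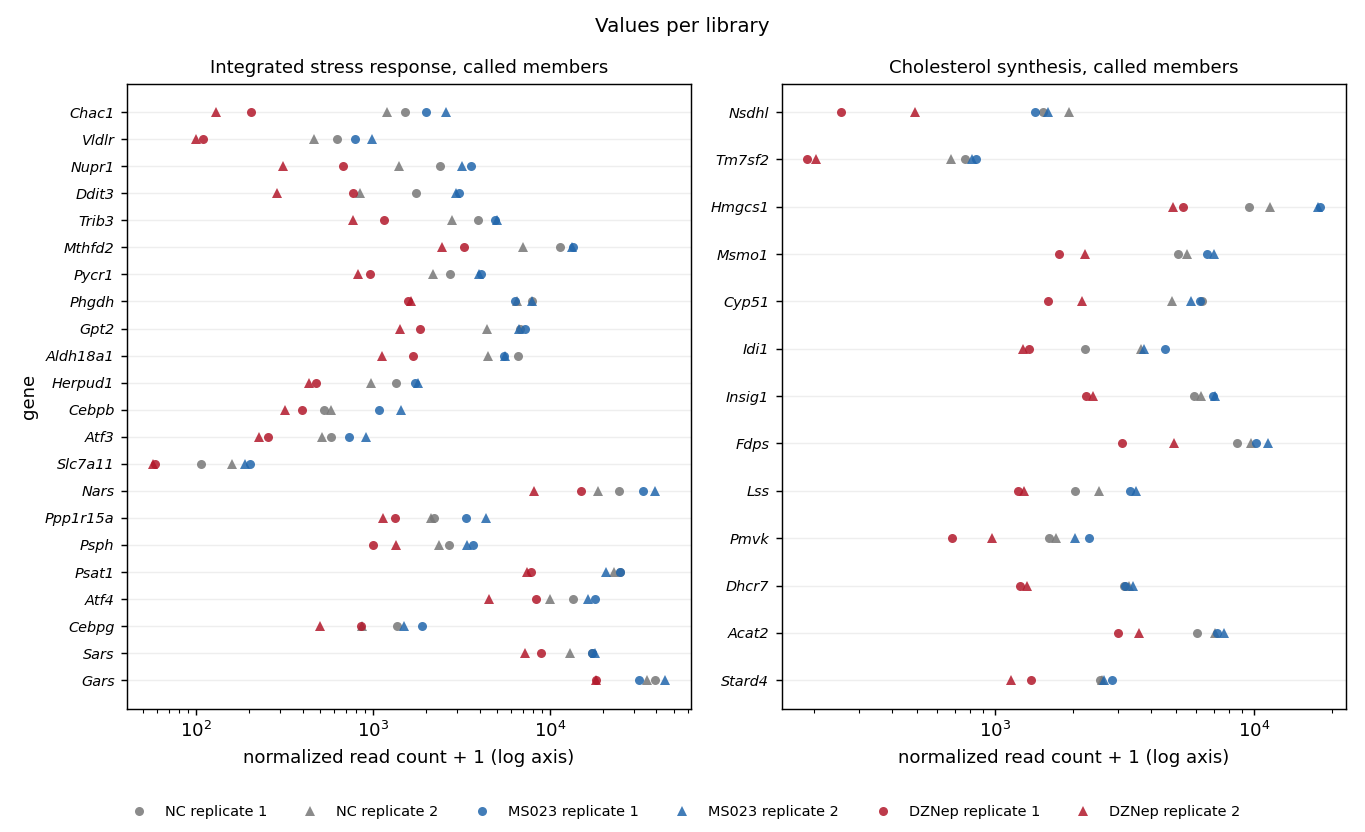
Normalized read count + 1 (log axis) of each DZNep (red), MS023 (blue) and NC (grey) library for members called lower in DZNep, 22 of the integrated stress response and 13 of the 16 of cholesterol synthesis, with circles for replicate 1 and triangles for replicate 2. DZNep lies to the left in every row, and MS023 is often to the right of NC in the stress response panel, as for Chac1 with 2006 and 2585 against 1526 and 1195.

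Genes with the largest single differences came from many processes. Among genes called higher, above 0 in all 22 libraries and with a larger group mean of at least 100, 626 were eligible, and the leading one was Gja1, the gap junction protein connexin 43. The gene lies at chr10:56377330-56402513 on the plus strand (GENCODE M21, mm10). It had 2877 and 2167 with DZNep, 73 and 70 with MS023 and 62 and 152 in NC, and the log2 difference was 5.11 ± 0.65, or 34.5-fold (limma adjusted p = 0.000125). Only DZNep stood apart, since none of the 16 libraries of other compounds exceeded 253. Crhr2, a receptor of the corticotropin-releasing hormone family, had 707 and 667 against 29 and 21 (4.74 ± 0.36), and the homeobox gene Nkx2-9 had 777 and 871 against 31 and 44 (4.44 ± 0.70). Dnmt3l, the cofactor of the de novo DNA methyltransferases, had 1487 and 612 with DZNep, 42 and 50 with MS023 and 9 and 40 in NC (4.35 ± 0.92, limma adjusted p = 0.00422). Its exons overlap those of Aire on the opposite strand, and 1 of the 16 other libraries reached 536.

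The muscle myosin Myh7, the bHLH repressor Msc, Perp, Oas1f of the oligoadenylate synthetase family, the cartilage protein Matn1 and Kndc1 completed the 10, with log2 differences from 3.97 to 4.42. For each, both DZNep libraries lay above all 4 MS023 and NC libraries. The call of Myh7 was lost without MS023 replicate 1, with a difference of 3.74 (limma adjusted p = 0.0503).

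Among 604 eligible genes called lower, Cox6a2, the muscle form of a cytochrome c oxidase subunit, led with 88 and 9 in DZNep, 1016 and 1249 in MS023 and 317 and 299 in NC. MS023 was the highest of the 3 groups and exceeded the 712 reached in the other 16 libraries. Those ran down to 1, so both DZNep values lay inside their range. The difference was −5.24 ± 0.91, or 37.8-fold (limma adjusted p = 0.00124). Its size depends on single DZNep libraries, with −6.82 without DZNep replicate 1 and −3.66 without DZNep replicate 2, and it was not called with the 4 libraries alone (limma adjusted p = 0.0677). It lies at chr7:128205435-128206387 on the minus strand, and its exons overlap those of Itgad on the opposite strand. G0s2, the inhibitor of adipose triglyceride lipase, had 28 and 33 with DZNep, 709 and 848 with MS023 and 294 and 241 in NC (−4.63 ± 0.31, limma adjusted p = 1.72e-06). NC again lay between. Among the 10 leading falls only G0s2 had both DZNep libraries below all 16 libraries of other compounds, whose lowest value was 59. The others were Adgra2, an adhesion receptor, the transcription factor Mef2b, the muscle carnitine palmitoyltransferase Cpt1b, the protease Capn12, the BH3-only gene Hrk, Chac1, Tnfaip2 and the peptide hormone Adm2, at −4.10 to −3.71. Adgra2 had 15 and 132 with DZNep and 317 and 1966 with MS023, with replicate 2 above replicate 1 in both groups. Its difference was −4.31 between the libraries numbered 1 and −3.89 between those numbered 2. The limma adjusted p was 0.049, and the call was lost without DZNep replicate 1 (−2.57) or MS023 replicate 2 (−2.79). Cpt1b shares 93.7% of its 31-base stretches with other transcripts, and Mef2b shares exons with Borcs8.

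**Figure D3:**
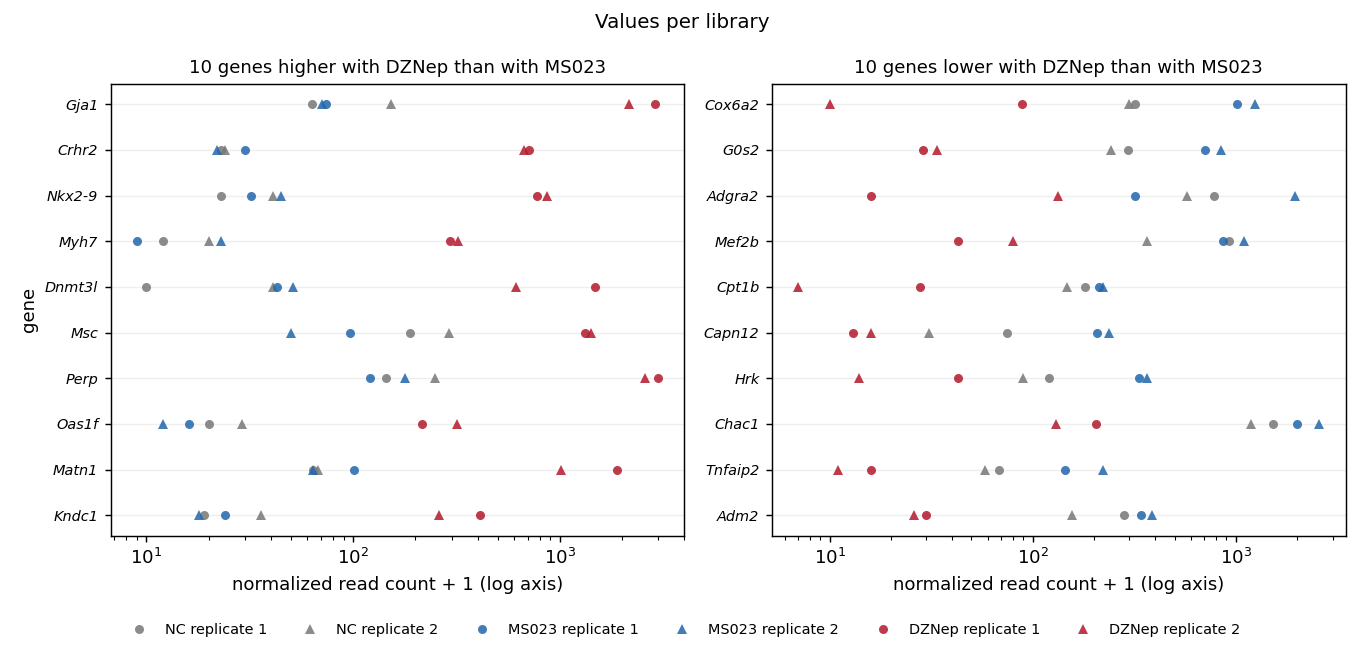
Normalized read count + 1 (log axis) per library for the 10 genes with the largest difference in each direction, with DZNep in red, MS023 in blue, NC in grey, replicate 1 as circles and replicate 2 as triangles. In the left panel MS023 and NC mostly lie together and DZNep stands apart, as for Gja1 with 2877 and 2167 against 73 and 70, and in the right panel MS023 often lies beyond NC, as for G0s2 with 709 and 848 against 294 and 241.

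In all, 10 genes were called in all 3 comparisons with DZNep and MS023 on opposite sides of NC, and 6 of them met the limits on level and symbol that the named genes follow. This set rests on both MS023 libraries. Without MS023 replicate 1 the calls of all 6 against NC were lost (limma adjusted p from 0.0533 to 0.26), as they were without MS023 replicate 2 (0.102 to 0.294), and 1 of the 10 remained in each case. That of Pcdhgb5 was also lost from the set without DZNep replicate 2, and with the replicate number as a block the set held 44 genes. Trib1, a pseudokinase that directs C/EBP proteins to degradation, had 514 and 420 with DZNep, 192 and 201 in NC and 79 and 68 with MS023, so that it was up with DZNep (1.24) and down with MS023 (−1.41), and the direct difference was 2.65 ± 0.26. The other 5 were down with DZNep and up with MS023. G0s2 is given above. Aldh1l2, the mitochondrial formyltetrahydrofolate dehydrogenase, had 107 and 90, 487 and 418, and 863 and 990 in DZNep, NC and MS023, and direct differences were −3.22 ± 0.22 for it, −2.82 ± 0.27 for Angptl6, −2.59 ± 0.26 for Hid1 and −2.41 ± 0.30 for the protocadherin Pcdhgb5. Pcdhgb5 shares exons with other genes of its cluster.

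Targets of p53, the tumor suppressor that DNA damage and other stresses stabilize, were called higher with DZNep more often than lower. Of 24 listed genes, all tested, 11 were called higher and 2 lower, and the median difference was 0.91, beside 5.56% higher and 5.39% lower among all genes. Perp, a membrane protein in p53-dependent apoptosis, led with 2994 and 2577 in DZNep, 120 and 177 in MS023 and 143 and 248 in NC (4.24 ± 0.31, limma adjusted p = 2.85e-06), and no library of the other compounds exceeded 388. The kinase Plk2 had 6342 and 4578 against 956 and 997 (2.46 ± 0.26), and Phlda3, an inhibitor of Akt, had 6837 and 8907 against 2403 and 2574 (1.65 ± 0.20). The death receptor Fas had 99 and 114 against 11 and 8, but its call was lost when any 1 of the 4 libraries was left out (limma adjusted p = 0.0171 with all, 0.0512 to 0.094 without 1).

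The remaining members did not form a uniform picture. Mdm2, the ubiquitin ligase of p53, had 11537 and 7585 against 3787 and 4323 and was called, as were the BH3-only genes Bbc3 and Pmaip1. Cdkn1a, the cell cycle inhibitor p21, had 6843 and 6634 with DZNep and 6024 in both MS023 libraries, and the 95% interval of its difference ran from −0.06 to 0.38. Trp53 itself, with 13113 and 14112 against 11369 and 11521, was not called. Gadd45a (472 and 377 against 1203 and 1038) and Plk3 (425 and 524 against 1072 and 1741) were called lower. In NC Gadd45a had 495 and 438, so that MS023 was the group that stood apart. Against NC the list's median was 0.77 for DZNep, with 6 members up and 1 down, and −0.01 for MS023, with 0 called either way. With the 4 libraries alone 5 members were called higher, and 7 without DZNep replicate 1 or without DZNep replicate 2.

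Transcripts of the clustered histone genes were in part higher with DZNep than with MS023, with NC on the side of DZNep for some genes and of MS023 for others. Of 62 listed genes 43 were tested, and 12 were called higher and 1 lower, beside 5.56% and 5.39% of all genes, with a median of 1.31. Replication-dependent histone messages end in a stem-loop in place of a poly(A) tail, so oligo-dT capture takes up only the part that is polyadenylated. Hist2h2aa2 had 284 and 335 with DZNep, 42 and 29 with MS023 and 54 and 23 in NC (3.11 ± 0.60, limma adjusted p = 0.00252). All of its 31-base stretches occur in other transcripts (100%), so it is not a separate measurement. Hist1h1c and Hist2h3c2 likewise had MS023 near NC. Hist1h3c had 80 and 99 with DZNep, 11 and 18 with MS023 and 128 and 179 in NC, and here MS023 was the group apart. It was called lower in MS023 than in NC, as were Hist1h2ag, Hist1h2bk and Hist1h3h. Of these 4 calls against NC, that of Hist1h2bk held without MS023 replicate 1 and the others were lost (limma adjusted p from 0.0709 to 0.224), and those of Hist1h2ag and Hist1h2bk were lost without MS023 replicate 2 (0.07 and 0.0805). Against NC the list's median was −0.24 for DZNep and −1.04 for MS023.

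Hist3h2a, with 28 and 9 against 151 and 228, was the 1 called lower (−3.45 ± 0.40). Its exons overlap those of Trim17 on the same strand, and 32.1% of its 31-base stretches occur in other transcripts. With the 4 libraries alone it was not called (limma adjusted p = 0.0566). Hist2h2aa1, with 44 and 60 against 1 and 1, and Hist2h3b, with 32 and 66 against 6 and 2, had larger differences at very low values. All of their 31-base stretches occur in other transcripts (100%), and neither call held without DZNep replicate 2 (limma adjusted p = 0.0774 and 0.117) or without MS023 replicate 2 (0.0713 and 0.144), and that of Hist2h2aa1 was also lost without MS023 replicate 1 (0.0674). The list is sensitive to the scale and the libraries. With a pseudocount of 10 the median was 0.69, and the members called higher were 3 with the 4 libraries alone, 4 without DZNep replicate 2 and 4 without MS023 replicate 2.

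Imprinted genes, expressed from 1 parental allele under control of DNA methylation or of polycomb marks, differed in both directions. Of 38 tested, 5 were called higher and 6 lower, beside 5.56% and 5.39% of all genes, with a median of 0.01 (−0.20 without DZNep replicate 1). Several called genes lie in the Dlk1-Dio3 domain on chromosome 12, with Meg3 at chr12:109541001-109571726, Rian at chr12:109603940-109661716 and Mirg at chr12:109729764-109749460, all on the plus strand. Its maternally expressed noncoding RNAs were lower with DZNep. Rian had 4680 and 2540 with DZNep, 41913 and 22878 with MS023 and 26697 and 15357 in NC (−3.17 ± 0.61, limma adjusted p = 0.00244), and Mirg had 607 and 603 against 1744 and 1196. Meg3 had 2623 and 848 with DZNep, 20744 and 10684 with MS023 and 11215 and 5094 in NC. Replicate 1 lay above replicate 2 in each of these groups. The difference was −3.32 ± 0.91 (limma adjusted p = 0.0188), with −2.98 between the libraries numbered 1 and −3.65 between those numbered 2. Its call was lost without DZNep replicate 2 (−2.50) and without MS023 replicate 1 (−2.84). The 16 libraries of other compounds spanned 2359 to 24752 for Meg3 and 4159 to 49460 for Rian, so DZNep replicate 2 lay below that range for both, and DZNep replicate 1 lay inside it. Dio3, a thyroid hormone deiodinase of the same domain, was higher with DZNep, at 916 and 777 against 120 and 93 (2.99 ± 0.64, limma adjusted p = 0.00449), with 113 and 234 in NC. Dlk1 and Rtl1 of the domain were low and not called.

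Of the other called genes, Cdkn1c, a cyclin-dependent kinase inhibitor, had 354 and 456 against 66 and 120, and the placental factor Ascl2 had 193 and 148 against 21 and 35. Peg10 and H13 were also higher. Plagl1 had 700 and 594 against 2197 and 2042, and Gnas and Impact were also lower. With the 4 libraries alone 2 members were called higher and 2 lower, and without MS023 replicate 1 only 3 were called lower.

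**Figure D4:**
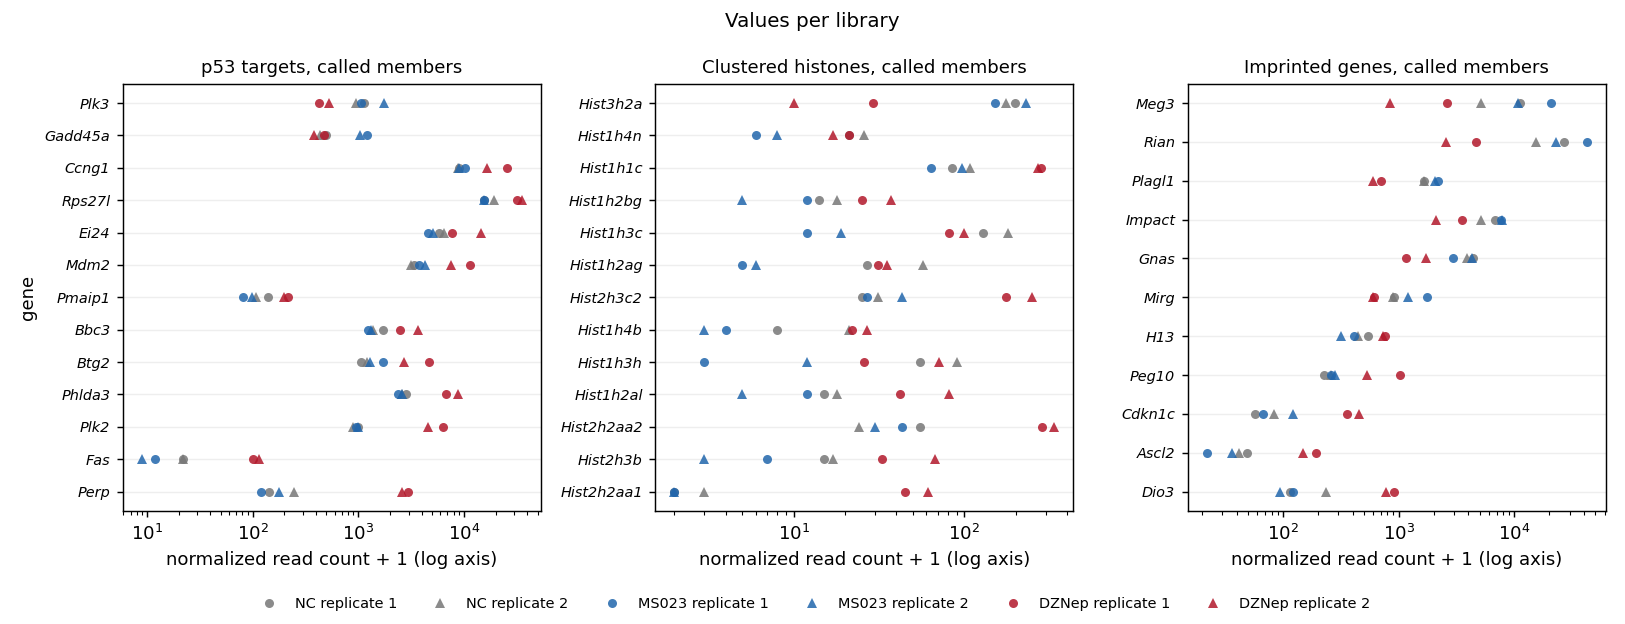
Normalized read count + 1 (log axis) per library for the called members of 3 gene lists, with DZNep in red, MS023 in blue, NC in grey, replicate 1 as circles and replicate 2 as triangles. DZNep stands apart from both other groups for p53 targets such as Perp (2994 and 2577). MS023 stands apart for several histones (Hist1h3c at 11 and 18 against 128 and 179 in NC), and imprinted genes fall on both sides (Rian at 4680 and 2540, Dio3 at 916 and 777).

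Lists of genes that write methylation or supply the methyl group had between 0% and 20.7% of members called, beside 10.9% of all tested genes. In the methionine cycle and folate list 3 of 29 were called higher and 3 lower, beside 5.56% and 5.39% of all genes, with a median of −0.02 that turned to 0.14 without DZNep replicate 1 and 0.06 without MS023 replicate 1. Bhmt, which remethylates homocysteine from betaine, had 6976 and 9846 with DZNep, 2237 and 2457 with MS023 and 3311 and 2581 in NC (1.82 ± 0.40, limma adjusted p = 0.00513), and its neighbor Bhmt2 was also higher (1.01 ± 0.19). Cbs, which takes homocysteine into transsulfuration, had 2370 and 1825 against 809 and 516 (1.68 ± 0.36), a call lost without MS023 replicate 2 (1.36, limma adjusted p = 0.0574). The called members that were lower were the mitochondrial folate enzymes Mthfd2 and Mthfd1l (−1.34) and the glycine methyltransferase Gnmt. Gnmt was at 1 and 0 with DZNep, 6 and 12 with MS023 and 28 and 18 in NC, and its call was lost with a pseudocount of 10. Mat2a, which makes S-adenosylmethionine, had 9208 and 8553 against 12673 and 17267, with a 95% interval of −1.69 to 0.21, and was not called. Without MS023 replicate 2, 1 member of the list was called higher.

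Of 11 tested genes of polycomb repressive complex 2 and its partners 18.2% were called: Jarid2, which recruits the complex, was higher and Phf19, an accessory subunit, lower. Jarid2 had 15635 and 12673 with DZNep, 5378 and 5883 with MS023 and 6806 and 6968 in NC (1.32 ± 0.16, limma adjusted p = 8.66e-05). Phf19 had 30 and 51, 216 and 201, and 347 and 320 in the same order (−2.38 ± 0.25, limma adjusted p = 2.79e-05). DZNep was the group apart in both. The core subunits were not called: the 95% intervals were −0.73 to 0.09 for the catalytic subunit Ezh2, −1.80 to 0.59 for Suz12 and 0.14 to 0.70 for Eed. The list's median was −0.24, and 0.08 without DZNep replicate 2. Of 49 listed polycomb target genes, developmental regulators silent in embryonic stem cells, 29 were tested. Of these 3 were called higher (Wnt6, Cdkn1c and Neurod1) and 2 lower (Msx1 and Gata4), 17.2% in all, beside 10.9% of all tested genes. The median of 0.21 turned to −0.22 without MS023 replicate 1. Against NC this list's median was −0.53 for DZNep, with 4 members up and 5 down. For MS023 it was −0.51, with 0 called either way. Wnt6 had 269 and 273 against 46 and 49. Msx1 had 11 and 27 against 53 and 61, and its call was lost without DZNep replicate 1 (−1.05), without MS023 replicate 1 (−1.76) and without MS023 replicate 2 (−1.56), with limma adjusted p of 0.227, 0.099 and 0.147.

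Among 21 lysine methyltransferases Setdb1, which writes trimethylation of histone H3 lysine 9, was the 1 called, higher by 1.06 ± 0.13 at 9922 and 9104 against 4576 and 4533. Without DZNep replicate 1 the difference was 1.00, at the fold limit, and the call was lost. Among 19 genes of arginine methylation Btg2, which binds Prmt1 and is also a p53 target, was the 1 called, at 4661 and 2732 against 1709 and 1293 (1.26 ± 0.26), and without DZNep replicate 1 the difference of 0.88 was under the limit. Of 16 DNA methylation genes Dnmt3l was higher and Tet3, which oxidizes methylcytosine, lower. Tet3 had 158 and 159 against 314 and 560, and its call was lost without MS023 replicate 2 (−0.98, limma adjusted p = 0.105). Dnmt1 had a 95% interval of −0.12 to 0.35, and Dnmt3b, with 2244 and 1980 against 907 and 1214, one of −0.26 to 2.27. Of 25 RNA methylation genes 0 were called, 20 of the differences were positive, and the median was 0.20.

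Pluripotency genes were maintained in both groups and several were higher with DZNep. Of 24, 4 were called higher and 0 lower, beside 5.56% and 5.39% of all genes. The median of 0.22 was 0.08 without DZNep replicate 1, 0.10 without MS023 replicate 1 and 0.13 without MS023 replicate 2. Utf1, a chromatin protein of pluripotent cells, had 4622 and 5749 with DZNep, 1182 and 868 with MS023 and 1283 and 1467 in NC (2.35 ± 0.23, limma adjusted p = 1.72e-05), and no other library exceeded 4117. Tbx3 had 11776 and 10616 against 4685 and 4749 (1.24 ± 0.15), and Zfp42 (Rex1) had 49540 and 33822 against 19849 and 17645 (1.13 ± 0.19; 0.85 without DZNep replicate 1). Nanog had 92251 and 123367 with DZNep, 35221 in both MS023 libraries and 44793 and 59405 in NC (1.60 ± 0.37, limma adjusted p = 0.00754), and lost its call without DZNep replicate 2 (1.39, adjusted p = 0.0596). Pou5f1, with 32054 and 33724 against 26685 in both MS023 libraries, and Sox2, with 15924 and 12129 against 11842 and 11674, had 95% intervals of 0.10 to 0.50 and −0.15 to 0.64 and were not called. Identical values within a group arise at high levels from the normalization.

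Some lineage markers were called between the groups, in both directions. Of 19 tested primitive endoderm genes 4 were called higher and 2 lower (median 0.86), of 15 trophoblast genes 3 and 1 (0.66), of 16 primitive streak and mesoderm genes 3 and 4 (0.61), and of 14 neural genes 1 and 1 (0.62), beside 5.56% higher and 5.39% lower among all genes. The neural median was 0.39 without MS023 replicate 1. Without DZNep replicate 2, 2 primitive endoderm genes were called higher and the median was 0.43, and without DZNep replicate 1 the streak list had 1 higher and 1 lower. In bulk RNA, more cells of a type and more RNA per cell cannot be told apart. Hnf4a had 155 and 97 with DZNep against 9 and 12 with MS023 (3.44 ± 0.63), and Pdgfra had 120 and 85 against 23 and 19 (2.22 ± 0.38). Gata4, a defining factor of primitive endoderm, went the other way, with 35 and 61 against 88 and 144 (−1.27). Among streak genes 12 of the 16 differences were positive. Evx1 had the largest called rise, at 38 and 44 against 2 and 2 (3.80 ± 1.15), and lost its call when any 1 of these libraries was left out. On the other side Lefty2, an inhibitor of Nodal, had 320 and 241 against 2238 and 1240 (−2.58 ± 0.43), and Lefty1 had 92 and 113 against 495 and 330. The trophectoderm marker Plet1 had 696 and 731 against 247 and 246 (1.53 ± 0.24). Krt18, the trophoblast gene called lower, had 21 and 16 against 82 and 62 (−1.90 ± 0.49). Its call was lost without DZNep replicate 2 (−1.72) and without MS023 replicate 1 (−1.70).

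Summed values of cell type markers were higher in both DZNep libraries than in both MS023 libraries for trophoblast, fibroblast, neural and mesoderm markers and overlapped for primitive endoderm. The 5 trophoblast markers in the table summed to 640 and 531 with DZNep, 214 and 114 with MS023 and 217 and 173 in NC, with 1 called higher. The 8 fibroblast markers summed to 1669 and 1938, 1151 and 397, and 745 and 1476, with 2 called higher and Lum and Dcn at 0 in the DZNep and MS023 libraries. The 4 primitive endoderm markers summed to 347 and 654 with DZNep and 208 and 355 with MS023. The 3 neural markers summed to 3571 and 4576, 2150 and 2985, and 1737 and 3337 in DZNep, MS023 and NC. The 4 mesoderm markers summed to 261 and 263 with DZNep and 155 and 137 with MS023, with 0 called. Whether other cells contributed to the called genes was not tested.

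**Figure D5:**
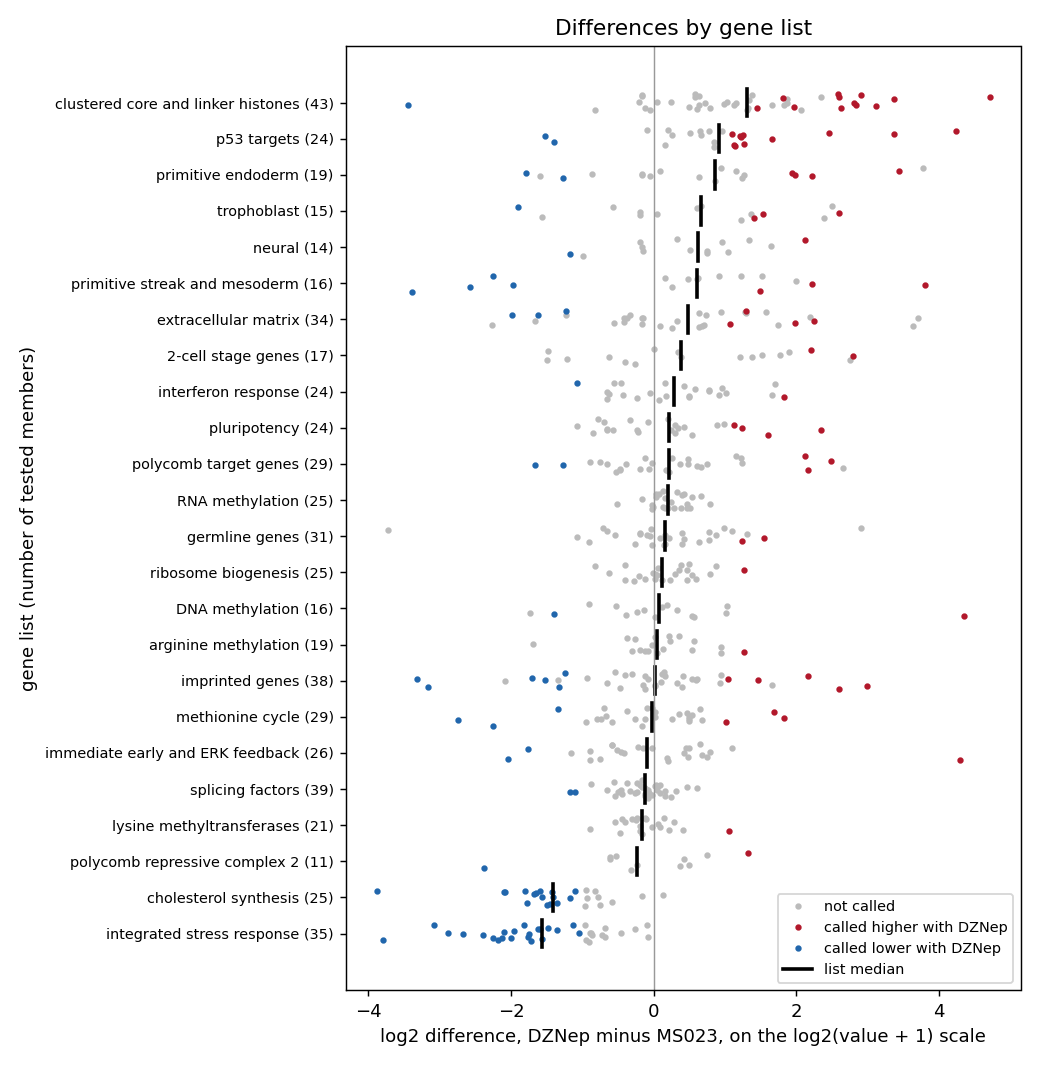
Log2 difference (DZNep minus MS023, on the log2(value + 1) scale) of each tested gene in 24 lists, ordered by list median (black bar), with genes called higher in red, called lower in blue and not called in grey. The integrated stress response (median −1.57) and cholesterol synthesis (−1.41) lie to the left as whole lists, and the histones (1.31) and p53 targets (0.91) lie furthest right.

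The remaining lists had between 4% and 20.6% of members called, beside 10.9% of all tested genes. Splicing factors, a main group of substrates of type I arginine methyltransferases, had 0 of 39 higher and 2 lower with a median of −0.13. The 2 were Srsf12 (−1.17) and Hnrnpa3 (−1.11), and neither call held without DZNep replicate 2 (−0.92 and −0.62) or without MS023 replicate 1 (−1.11 and −0.91), with limma adjusted p from 0.0577 to 0.345. That of Hnrnpa3 was also lost without MS023 replicate 2 (limma adjusted p = 0.0876). Ribosome biogenesis had 1 of 25 called, Polr1b of RNA polymerase I, at 5821 and 6755 against 2579 and 2605 (1.27 ± 0.29). Of 31 germline genes 2 were higher (Syce1 and Tdrd1), of 17 genes of the 2-cell stage 2 were higher (Ddit4l and Sp110; list median 0.38, and −0.14 without MS023 replicate 1), and of 24 interferon response genes Ifi27 was higher and Stat2 lower. Against NC the median of the 2-cell list was −0.48 for DZNep and −1.01 for MS023, so both lay below NC. That of the germline list was 0.48 for DZNep, with 6 members up and 0 down, and 0.20 for MS023. Most direct calls of the germline, 2-cell and interferon lists were lost when 1 library was left out. That of Tdrd1 was lost when any 1 of the 4 libraries was left out (1.30 to 1.79, limma adjusted p from 0.0957 to 0.228), and that of Syce1 without DZNep replicate 2 or MS023 replicate 1 (1.11 each, limma adjusted p of 0.087 and 0.0959). Sp110 lost its call without MS023 replicate 1 (2.25, limma adjusted p = 0.0829) and Ifi27 without MS023 replicate 2 (1.58, limma adjusted p = 0.0827). Stat2 fell just short of the fold limit without DZNep replicate 2, at a limma adjusted p of 0.0114. Ddit4l had 1389 and 1360 against 313 and 286 (4.58-fold, limma adjusted p = 3.31e-06) with no overlap with any NC value (300 and 384).

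Of 34 extracellular matrix genes 4 were higher and 3 lower (20.6%, beside 10.9% of all tested genes), with 2 higher without MS023 replicate 1. Col1a1 had 327 and 228 with DZNep, 50 and 65 with MS023 and 24 in both NC libraries (2.24 ± 0.34), and its chaperone Serpinh1 was lower, at 1312 and 959 against 3661 and 5395 (−1.99 ± 0.27). Of 26 immediate early and ERK feedback genes Myc was higher, and Zfp36 and Atf3 were lower. Myc, which drives growth and ribosome production, had 230 and 161 with DZNep, 13 and 6 with MS023 and 4 and 19 in NC, and no other library exceeded 89. Its difference of 4.29 ± 0.95 (limma adjusted p = 0.00559) lost its call without MS023 replicate 2 (3.79, adjusted p = 0.0541).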

How the data were processed

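RNA-seq of 22 libraries of E14 cells in 11 groups of 2 was used, grouped by titles and treatment labels. Per the processing notes in the labels, the authors used bcl2fastq, Bowtie2 2.2.5, RSEM and the build mm10. The study's methods do not name the compounds, and they describe RSEM counts normalized with EDASeq at its full setting. The deposited values are scores: normalized counts rounded to whole numbers, with nearly the same total in each library. This step hides depth, total RNA and any shift common to most genes, and can make values identical, so no interval that needs depth was given. Strandedness of counting is not stated. A second deposited table held the authors' group means (largest deviation from means of the library values, 0.0) and entered no result. Columns of other series numbered 0.

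Since count tests need raw counts, limma 3.58.1 (R 4.3.3) was run on log2(value + 1). Testing required 10 or more in 2 or more of the 22 libraries (17275 of 18487 genes; 482 were 0 throughout). The model held a mean for each of the 11 groups (lmFit, then eBayes with a trend on mean expression), and DZNep was contrasted with MS023 and each with NC. P-values are two-sided and Benjamini-Hochberg adjusted within a contrast over all tested genes. Calls needed an adjusted p below 0.05 and more than a 2-fold difference. Ranges after a difference are 95% intervals. The fit was tested on simulated data.

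The members, the 24 gene lists and the motifs were chosen with earlier results of these data known. Named genes are the 10 called genes with the largest difference each way (groups apart, larger mean at least 100, smaller at least 10, above 0 in all 22 libraries, no clone, predicted, olfactory or vomeronasal symbols, which left out 235 called genes), up to 4 called members per list, 18 single genes, and genes called in all 3 contrasts on opposite sides of NC. A few members of the cholesterol synthesis list are counted in it but not reported singly here. Others are said to be named after their values were seen, among them each further list member. Alternatives were a pseudocount of 10, no filter, only genes above 0 in all libraries, the 4 libraries alone, the replicate number as a block, median-ratio rescaling, and leaving out each of the 4 libraries. Positions and shared 31-base stretches are from GENCODE M21 (mm10; 161 of 162 symbols matched), and promoters from RefSeq (GRCm38.p6; 32851 windows of 27025 genes). Python 3.11.15, numpy 2.4.6, pandas 2.3.3 and matplotlib 3.10.9 were used for tables and plots.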

Additional observations from a re-analysis of the deposited data

How the results depend on the processing

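The 1891 calls rest on 2 libraries per group and on a spread estimated from all 22 libraries, and the depth of each library is not known. Fitted on the 4 DZNep and MS023 libraries alone, the comparison gave 460 higher and 325 lower calls, against 960 and 931. Leaving out 1 of the 4 libraries gave 727 to 964 higher and 653 to 1067 lower calls. In these fits the lone library of a group is assumed to vary like the others. The replicate numbers are then also unbalanced between the groups, so a shift between numbers can enter the difference. The other alternatives stayed within 1.5 times of both counts. Replicate 2 lay above replicate 1 on the first and second principal components (16.5% and 11.2% of the variance) in 11 of 11 groups, and the deviations of same-numbered DZNep and MS023 libraries correlated at 0.141 across genes. With only 2 numbers shared, and nothing in the labels that says what a number marks, the samples were not treated as paired. With the replicate number as a block, 1265 genes were called higher and 1252 lower, 2517 in all, which included all 1891. Of 87 called genes named by the rule, 45 kept their call under all 10 alternatives, 29 lost it with the 4 libraries alone, 12 to 17 when 1 library was left out and 0 under the block, and 0 changed direction. Among genes not called, Prmt1 ran from −0.24 to 0.01 and Suz12 from −1.30 to 0.08 when 1 library was left out, turning sign without MS023 replicate 2 and without DZNep replicate 2. Dnmt3b was called with the block (1.01, limma adjusted p = 0.0123).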

Other observations

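Other gene families, chosen after values were seen, differed between DZNep and MS023 in ways that the lists above do not cover, and each is a description without a test of the family. Of 23 tested clustered protocadherins, cell adhesion genes whose variable exons join shared ones, 14 were called lower in DZNep and 0 higher, with a median log2 difference of −1.23, beside 5.39% of all tested genes called lower. These genes share exons, so their values are not separate measurements. Of 20 cytosolic aminoacyl-tRNA synthetases, which charge tRNAs with amino acids, 5 were called lower (Lars, Gars, Sars, Iars and Nars) and 0 higher, with a median of −0.58, and 3 of these are also members of the integrated stress response list. Of 19 Rhox genes, a homeobox cluster on the X chromosome, 5 were called higher (Rhox5, Rhox2b, Rhox2a, Rhox2h and Rhox13) and 0 lower, beside 5.56% of all tested genes called higher. Their median was 0.98, and several of them are near copies of each other.

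Families of the core machinery held few calls, beside 5.56% higher and 5.39% lower among all tested genes. Of 86 cytosolic ribosomal proteins 2 were called higher and 3 lower with a median of −0.13, and of 37 proteasome subunits and 8 chaperonin subunits 0 were called either way by limma. The 8 chaperonin subunits are too few for a count of 0 to say much beside those shares.

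Some genes were listed at 0 in both libraries of a group, for which no fold is given. Exosc6, a subunit of the RNA exosome, was at 1159 and 3139 with DZNep and listed at 0 in both MS023 and both NC libraries. Akr1c18, a hydroxysteroid dehydrogenase, was at 835 and 1152 with DZNep, whereas both MS023 libraries were listed at 0 and NC stood at 449 and 810, and the difference was not called (limma adjusted p = 0.0525). Olfr1129 was at 390 and 470 with MS023 and listed at 0 in both DZNep and both NC libraries. In the 22 libraries these genes were listed at 0 in 11, 8 and 17, respectively.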
